A study of Mus musculus with 14 samples.

Results

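Ovaries of control mice were compared between day 7 and day 89, across all genes of the deposited table and by gene length. The members are the 6 control libraries of 14 in the series: 3 at day 7 (replicates 10, 51 and 53) and 3 at day 89 (R123, R124 and R126), chosen by their labels and by no measured value. Both groups are labelled female, wild-type C57BL/6J and ovary, and neither is labelled as given dextran sulfate sodium (DSS), a polymer used to inflame the mouse colon. The other 8 libraries are ovaries of DSS mice, 4 at each day. They enter the filter of genes and the estimate of spread behind each call. Their own values stand beside the controls only where stated. The series text places day 7 at the close of the colitis model and the later ovaries after a rest of 89 days. A p-value per gene here sets the day difference against the spread between libraries, pooled over all 4 groups. Part of that spread may be technical. The labels state neither age nor oestrous stage, nor whether each library is a separate animal. Day therefore cannot be told apart from age, cohort, collection or library preparation.

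The adult ovary holds follicles, each an oocyte wrapped in granulosa cells and bounded by a basement membrane and theca cells, together with corpora lutea, vessels, stroma and a covering surface epithelium. Follicles are recruited from a finite reserve that shrinks with age, and the stroma of an aging ovary is known to gain collagen and macrophages. In bulk RNA, fewer cells of a type and less RNA per cell cannot be told apart.

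The labels name ovary as the tissue, while their extraction protocol speaks of retinas. Foxl2, the granulosa cell transcription factor, stood at 134, 106 and 88.9 FPKM at day 7 and 74.9, 77.9 and 79.9 at day 89, and Zp3, a zona pellucida protein of the oocyte, at 40.05, 24.8 and 42.8 FPKM at day 7 and 35.3, 9.55 and 34.3 at day 89. Of 16 retina genes listed, 14 did not pass the filter and none of those exceeded 0.733 FPKM in a control library. The libraries thus carried the transcripts of ovary. Rom1, a photoreceptor disc protein, was the highest retina gene, at 3.41 to 7.02 FPKM.

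Values are FPKM, fragments per kilobase of gene scaled to depth, and a log2 difference is the mean of log2(FPKM + 1) at day 89 minus that at day 7. This scale understates changes of genes with low values. A gene was called when its limma p, adjusted by the Benjamini-Hochberg method over all genes tested, was under 0.05. Values are listed in the order 10, 51, 53 for day 7 and R123, R124, R126 for day 89. Reads recovered from the FPKM steps ran from 15260000 to 18510000 over the 14 libraries. The depth used in the deposited scaling, read from the same steps, was not each library's recovered total. It was 0.935, 0.999 and 0.913 of that total at day 7 and 1.02, 0.995 and 1.02 at day 89. Mitochondrial genes took 9.96% and 12.2% of reads in day 7 replicates 10 and 53, but 1.66% in replicate 51 and 0.479% to 2.25% at day 89. These 2 libraries are set apart below, and results are also given without them, which leaves replicate 51 as the single day 7 control. The first principal component of all 14 libraries held 47.7% of the variance and placed the day 7 controls at −54.3, −26.5 and −56.7 and the day 89 controls at 45.5, 44.5 and 42.

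The day difference in control ovaries was broad. Of 18006 genes tested, out of 56748 in the table, 5732 (31.8%) were called: 2900 higher at day 89 (16.1%) and 2832 lower (15.7%). A fit of the 6 control libraries alone, without the DSS libraries, called 2425 higher and 2317 lower. It shared 78% of the rises and 75.8% of the falls. The 6 libraries did not overlap for 8098 genes (45.0%), with 4105 above (22.8%) and 3993 below (22.2%) at day 89. Called genes differed by a median size of 0.85 on the log2 scale. Among them 957 rose by over 1 and 1132 fell by over 1, while 84 and 150 changed by over 2. The balance of rises and falls depended on the scaling. With each library rescaled to TPM, so that every library sums to the same total per length, the median of all genes moved from 0.00 to 0.46 and the calls became 5710 higher and 1082 lower, 84.1% of calls higher against 50.6% as deposited. Changes below are on the deposited scale. With TPM the list medians of proteasome (0.45), circadian (0.30), antioxidant (0.49), theca (0.47), nerve (0.13), chemokine (0.43) and histone (0.39) genes turned from below to above 0. Without the 2 libraries of high mitochondrial share, 1017 genes were called higher and 958 lower, and without control replicate 53 alone 1858 and 1837. Many genes named below were called with all 6 control libraries but not without those 2. They include Nid2, Lamc1, Krt18, Aif1, Il7r, Meg3, Ltbp4, Egfl7, Tef and Per3, a list that is not complete.

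The leading genes were picked by size among called genes whose 6 control values did not overlap, so their calls and separation describe the choice. Genes that were low at day 7 and well expressed at day 89 led the rises. Vcl, which encodes vinculin, the linker between integrin adhesions and actin, stood at 0.366, 0.839 and 0.228 FPKM at day 7 and 18.5, 21.6 and 18.6 at day 89. It rose 41.0-fold on the FPKM means, with a log2 difference of 3.82 (SE 0.40, adjusted p = 0.000199). Mmp2, a gelatinase that cleaves basement membrane collagen, stood at 3.14, 5.02 and 3.24 FPKM at day 7 and 62.9, 35.7 and 28.8 at day 89, with a log2 difference of 3.12 (SE 0.41, adjusted p = 0.000382). Timp3, an inhibitor of such metalloproteinases that is bound to the matrix, stood at 1.75, 4.2 and 1.67 FPKM at day 7 and 21.6, 20.7 and 20.7 at day 89, with a log2 difference of 2.71 (SE 0.31, adjusted p = 0.000257). In each of these 3 genes every day 89 library exceeded every day 7 library by several fold, and none of the 3 calls was lost without any 1 control library.

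Others of the 12 largest rises serve signalling and protein turnover. Adcy9, an adenylyl cyclase that makes cyclic AMP, stood at 0.909, 1.2 and 1.38 FPKM at day 7 and 16.3, 14.7 and 13.4 at day 89. Usp9x, a deubiquitinase, stood at 1.08, 1.53 and 1.5 FPKM at day 7 and 17, 12.9 and 14.4 at day 89, and Cmip, a signalling adaptor, at 1.42, 1.32 and 0.795 FPKM at day 7 and 12.9, 13.6 and 13.1 at day 89. Sacm1l, a phosphoinositide phosphatase of the endoplasmic reticulum, stood at 0.677, 1.24 and 0.825 FPKM at day 7 and 12.9, 11.3 and 10.7 at day 89. Klhl11, a substrate adaptor of a ubiquitin ligase, stood at 0.584, 1.02 and 0.72 FPKM at day 7 and 11.8, 9.41 and 11.1 at day 89. Pcdhgc3, a clustered protocadherin of cell contacts, stood at 0.23, 0.177 and 0.117 FPKM at day 7 and 11.4, 3.85 and 7.68 at day 89, and Garre1 at 0.339, 0.781 and 0.749 FPKM at day 7 and 9.19, 8.15 and 8.84 at day 89. The day 7 values of these 7 genes lay between 0.117 and 1.53 FPKM and the day 89 values between 3.85 and 17.0, so no library overlapped. Their log2 differences ran from 2.59 for Garre1 to 2.87 for Adcy9. Klhl11 was not called without both libraries of high mitochondrial share (2.54, adjusted p = 0.0816).

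**Figure D1:**
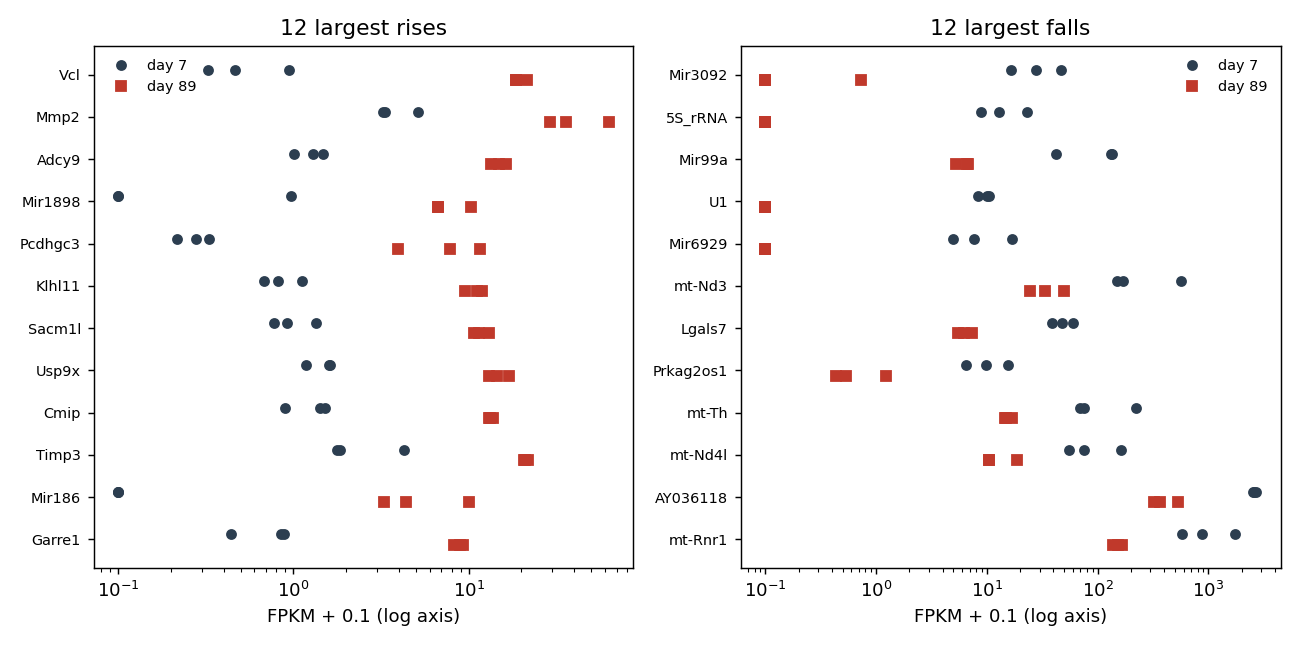
FPKM + 0.1 on a log axis in each control library for the 12 largest rises and the 12 largest falls among called genes. Circles are the 3 day 7 libraries and squares the 3 day 89 libraries; the rule that chose these genes required that the 2 days not overlap, and a point at 0.1 is a library listed at 0.

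Small RNA genes, mitochondrial transcripts and a surface epithelial gene made up most of the 12 largest falls. Lgals7, galectin 7 of stratified and surface epithelia, stood at 47.9, 38.8 and 59.5 FPKM at day 7 and 6.07, 7.24 and 5.4 at day 89, with a log2 difference of −2.77 (SE 0.35, adjusted p = 0.00034). AY036118, a pseudogene entry, stood at 2524, 2690.1 and 2566 FPKM at day 7 and 365, 536 and 325 at day 89, with a log2 difference of −2.70 (SE 0.41, adjusted p = 0.000685). Prkag2os1, a long non-coding RNA antisense to a kinase subunit gene, stood at 9.67, 6.33 and 15.4 FPKM at day 7 and 0.331, 1.14 and 0.431 at day 89. Antisense reads cannot be told from sense reads here, since the labels do not state how strand was handled. The 12S ribosomal RNA of mitochondria, mt-Rnr1, stood at 877, 574 and 1742 FPKM at day 7 and 153, 139 and 166 at day 89, and mt-Nd3, a complex I subunit, at 149.6, 169.7 and 567.8 FPKM at day 7 and 49.2, 33.2 and 24.6 at day 89. Both were highest in replicate 53. The mitochondrial transfer RNA mt-Th stood at 69.5, 75.1 and 224 FPKM at day 7 and 14.7, 16.8 and 14.6 at day 89. Of these, mt-Rnr1, mt-Nd3, mt-Th and Prkag2os1 were not called when both libraries of high mitochondrial share were left out.

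Ribosomal 5S and spliceosomal RNA entries showed the limits of multicopy genes. One entry under the symbol 5S_rRNA stood at 12.9, 8.72 and 23.1 FPKM at day 7 and 0, 0 and 0 at day 89, a fold of at least 24.2 lower against a floor of 3 reads over the day 89 group. That 5S_rRNA entry was not called without both libraries of high mitochondrial share (adjusted p = 0.053). A second entry under that symbol stood at 0, 0 and 0 FPKM at day 7 and 4.17, 1.91 and 3.1 at day 89, at least 5.63-fold higher against the same kind of floor at day 7. A U1 entry, of the RNA that recognises the 5′ splice site, stood at 10.03, 8.15 and 10.3 FPKM at day 7 and 0, 0 and 0 at day 89, at least 24.2-fold lower. A U6 entry, of the RNA in the catalytic core of the spliceosome, stood at 0, 0 and 0 FPKM at day 7 and 2.93, 3.02 and 2.18 at day 89, at least 2.37-fold higher. Against a floor of 3 reads over a group, bounds this low mean that the U6 and the second 5S_rRNA entries rest on few reads. The entries under 5S_rRNA therefore differed in opposite directions, the rise on few reads. The labels do not state how reads were split among near-identical copies.

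Among these 24 leading genes 5 were miRNA hairpin genes. Their mature sequences are printed because the seed, bases 2 to 8, decides which targets a miRNA pairs with, and they are taken from RefSeq for GRCm38.p6 with the seed in capitals. The values are those of the hairpin genes, which span 65 to 96 nt, and not of the mature miRNAs. No 2 of these 9 mature sequences share a seed.
mmu-miR-1898: aGGUCAAGguucacaggggauc
mmu-miR-186-5p: cAAAGAAUucuccuuuugggcu
mmu-miR-186-3p: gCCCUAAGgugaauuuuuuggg
mmu-miR-3092-3p: gAAUGGGGcuguuuccccucc
mmu-miR-3092-5p: aGGGGAAAaugccuuucuccca
mmu-miR-99a-5p: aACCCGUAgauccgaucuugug
mmu-miR-99a-3p: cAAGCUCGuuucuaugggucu
mmu-miR-6929-3p: cAGGUGCUgucuucuucuuccag
mmu-miR-6929-5p: aGGGAGGAgcagcaucuguga

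By GENCODE M21 on GRCm38, Mir186 lies at chr3:157544279-157544349 (plus strand) within Zranb2, and Mir1898 at chr15:12171492-12171574 (plus strand) within Zfr. Mir3092 lies at chr3:27584900-27584995 (minus strand) within Fndc3b, and Mir99a at chr16:77598936-77599000 (plus strand) within the non-coding host Mir99ahg. Mir6929 lies at chr11:101419187-101419253 (minus strand) and overlaps Ptges3l. Mir99a stood at 133, 41.6 and 136 FPKM at day 7 and 6.73, 5.21 and 6.57 at day 89, a fall of 3.69 on the log2 scale, and Mir99ahg fell with it, at 3.23, 1.93 and 3.27 FPKM at day 7 and 0.414, 0.45 and 0.346 at day 89. Mir1898 stood at 0, 0 and 0.864 FPKM at day 7 and 6.58, 10.2 and 6.62 at day 89 and Zfr, an RNA-binding zinc finger protein, rose beside it, at 12.5, 15.4 and 16.3 FPKM at day 7 and 23.7, 32.4 and 29.1 at day 89. Mir6929 stood at 16.9, 4.84 and 7.5 FPKM at day 7 and 0, 0 and 0 at day 89, at least 11.4-fold lower against the floor, and Ptges3l fell too, at 6.95, 5.16 and 7.56 FPKM at day 7 and 2.1, 1.39 and 0.753 at day 89. The other 2 went against the gene that holds them. Mir3092 stood at 27.7, 16.3 and 46.3 FPKM at day 7 and 0, 0 and 0.636 at day 89, while Fndc3b, a membrane protein with fibronectin repeats, rose by 1.54. Mir186 stood at 0, 0 and 0 FPKM at day 7 and 10.01, 3.18 and 4.3 at day 89, at least 6.45-fold higher against the floor, while Zranb2, a splicing factor, fell by 0.49 (adjusted p = 0.0276). Hairpin genes are so short that values of a few FPKM rest on few reads. Of 231 miRNA genes tested, 22 (9.52%) were called higher and 25 (10.8%) lower, below the shares over all genes. Mir99a, Mir3092 and Mir6929 were not called without both libraries of high mitochondrial share.

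Gene length separated rises from falls. Tested genes were ordered by the deposited gene length, which for 94.9% of matched genes equals the summed exon length in GENCODE M21, and divided into 10 bins of nearly equal size. In bin 1, the shortest (27 to 567 nt), the median log2 difference was −0.22, with 150 genes called higher and 347 lower. The medians of bins 2 and 3 were −0.35 each, with 500 and 518 genes lower. The median then rose from bin to bin, through −0.08 in bin 5 (2693 to 3422 nt) and 0.07 in bin 7, to 0.39 in bin 10 (8839 to 123179 nt). There 655 genes (36.4%) were higher and 59 (3.28%) lower. Bin 1 broke the order, with a median above those of bins 2 and 3, and only 5.49% of its genes were protein-coding. Across all 18006 genes the Spearman correlation of length and log2 difference was 0.37, a description only, since genes of a library share its depth and composition.

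**Figure D2:**
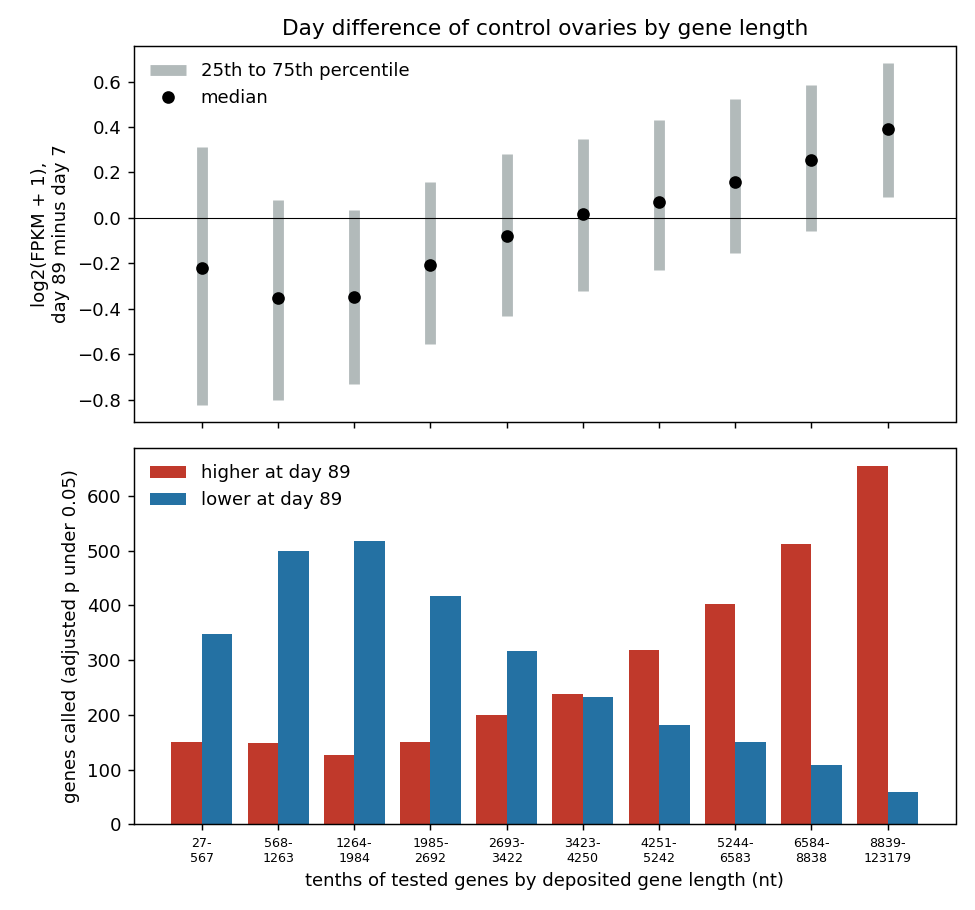
Day difference of control ovaries by 10 bins of gene length (nt). The upper panel gives the median log2(FPKM + 1) difference, day 89 minus day 7, with the 25th to 75th percentile; the lower panel counts genes called higher and lower, which go from 150 and 347 in the shortest bin to 655 and 59 in the longest.

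Within each library the same order was measured over 4 bins of gene length, as the mean centred log2 value of the shortest bin minus that of the longest. It was 0.395, 0.119 and 0.335 in the day 7 controls and −0.381, −0.342 and −0.343 in the day 89 controls. The groups did not overlap, and the means differed by −0.638, with an exact two-sided permutation p of 0.1, the smallest that 3 against 3 libraries allow. Gene length was taken up because short and long genes were already known to shift between these days. The separation and its p therefore describe that choice. Among day 7 libraries replicate 51, the one of low mitochondrial share, was the least tilted towards short genes, and without the other 2 the difference was −0.474. The shortest of these 4 bins took 19.1%, 11% and 20.8% of reads at day 7 and 7.43%, 6.13% and 7.11% at day 89. The longest took 25.5%, 30.4% and 26.2%, then 38.4% in each of the 3 day 89 libraries. In all 12 library measures were tested in this way, and every one that reached an exact p of 0.1 had an adjusted p of 0.15.

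**Figure D3:**
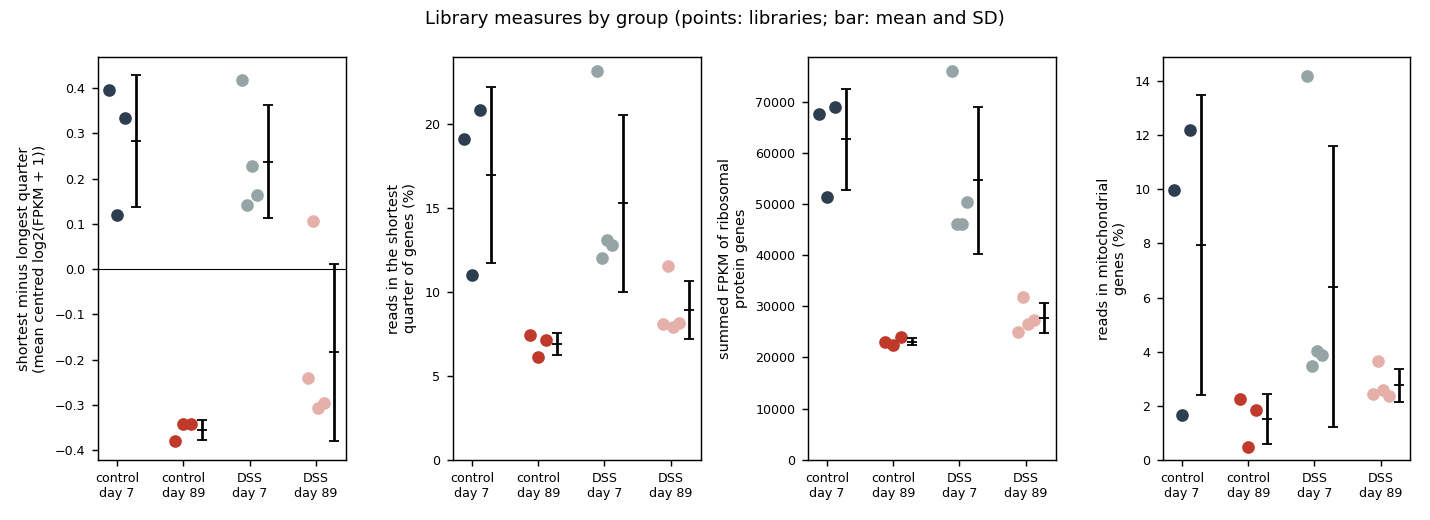
Library measures in the 4 groups: the shortest minus the longest of 4 length bins (centred log2 units), the percent of reads in the shortest bin, the summed FPKM of ribosomal protein genes and the percent of reads in mitochondrial genes. Points are libraries and bars the mean with SD; the 3 day 89 controls lie within −0.381 to −0.342 in the first panel, below all day 7 libraries.

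Coding length followed the day difference more closely than either untranslated part, and transcript length more closely still. Over 13756 protein-coding genes with an annotated coding sequence, the Spearman correlation with the log2 difference was 0.45 for coding length, 0.33 for 3′ UTR length and 0.12 for 5′ UTR length. It was 0.50 for the length of the longest protein-coding transcript, 0.39 for the genomic span and −0.15 for GC content. From the shortest to the longest of 4 bins of coding length the median went from −0.32 (189 genes higher, 1034 lower) through −0.02 and 0.14 to 0.38 (1231 higher, 91 lower). Among genes in the shortest of 4 bins of 3′ UTR length, the medians by coding bin were −0.57, −0.28, −0.11 and 0.14. Among those in the longest 3′ UTR bin they were −0.01, 0.17, 0.31 and 0.46. The coding order was thus present at both ends of 3′ UTR length. A 3′ UTR order was present as well. From the shortest to the longest 3′ UTR bin the median went from −0.57 to −0.01 in the shortest coding bin. In the longest coding bin it went from 0.14 to 0.46. The 743 coding genes that rose by over 1 had a median coding length of 2202 nt, and the 606 that fell by over 1 had one of 540 nt, against 1335 nt over all.

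Removing each library's smooth trend over gene length left most calls in place. The counts became 2418 higher (13.4%) and 2433 lower (13.5%). Of the genes called before, 2006 of 2900 rises and 1966 of 2832 falls were called again, none was called in the opposite direction, and 412 and 467 were gained. The removal also takes away any real difference that follows length, so both fits are given. Vcl kept a difference of 3.53, Mmp2 of 3.16 and Lgals7 of −2.43 after removal. Huwe1, a ubiquitin ligase gene of 23507 nt, went from 1.40 to 0.89.

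The genes with the smallest p at each end of the length range show both sides. Among bin 10 these were Tnrc18, a chromatin reader, at 12, 9.23 and 10.1 FPKM at day 7 and 43.2, 39.3 and 35.3 at day 89. Sptan1, the non-erythroid alpha spectrin under the plasma membrane, stood at 11.6, 15.1 and 11.8 FPKM at day 7 and 35.5, 35.2 and 33.2 at day 89. Rreb1, a zinc finger transcription factor of the Ras pathway, stood at 1.77, 1.83 and 1.45 FPKM at day 7 and 7.83, 6.35 and 6.77 at day 89. All 3 rose without overlap, by 1.82, 1.37 and 1.57. Among bin 1 they were the U6 and the second 5S_rRNA entries described above, both on few reads, and Rpl38, a protein of the large ribosomal subunit. Rpl38 stood at 707, 542 and 985 FPKM at day 7 and 102, 149.98 and 112 at day 89 and fell by 2.58.

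Genes that moved against the trend of their length were also called. Short genes that rose included Cd68 (1257 nt) and Ctss (1358 nt), both expressed by macrophages. Long genes that fell included Meg3 (19071 nt), an imprinted non-coding RNA, Per3 (9608 nt), a clock repressor, and Krt7 (7049 nt), a simple epithelial keratin. Their values follow with their groups, which come from 47 gene lists of pathways and cell types. Counts in every list are to be read against 16.1% of all genes called higher and 15.7% lower. Genes named from a list were picked mainly by smallest p, so their separation describes the choice. Over all genes the 6 control libraries did not overlap for 45.0%.

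**Figure D4:**
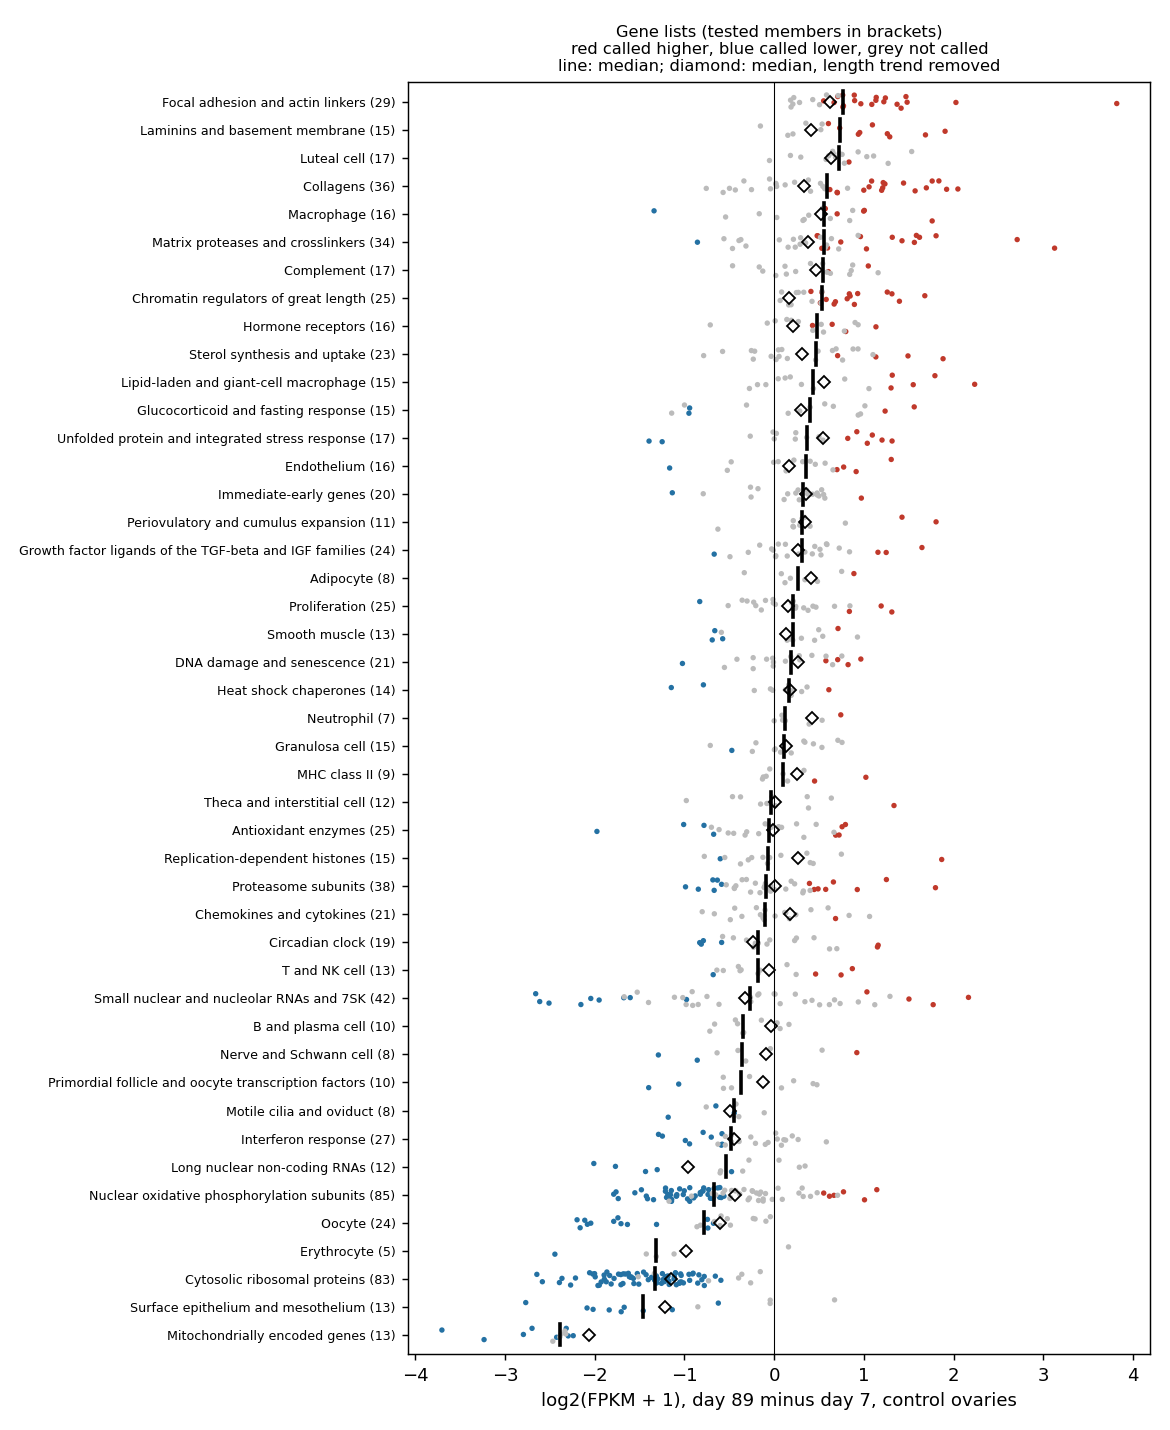
Log2(FPKM + 1) difference, day 89 minus day 7 in control ovaries, of every tested member of the gene lists with at least 5 tested members. Points are genes, red called higher, blue called lower and grey not called; the line is the list's median and the diamond its median with the length trend removed, which stand at −2.39 and −2.06 for mitochondrially encoded genes and at 0.77 and 0.63 for focal adhesion genes.

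Cytosolic ribosomal proteins, the protein subunits of the translating ribosome, were lower at day 89 almost throughout. Of 83 tested, 76 fell and none rose, with a median of −1.33, against −0.00 over all genes and 15.7% of all genes called lower. Their summed FPKM was 67700, 51320 and 69070 at day 7 and 22950, 22460 and 23940 at day 89. Rps28 stood at 349, 193 and 391.6 FPKM at day 7 and 62.4, 60.7 and 67.4 at day 89, with a log2 difference of −2.21 (SE 0.24, adjusted p = 0.000257). Rpl22 stood at 264, 242 and 268 FPKM at day 7 and 105, 112 and 105 at day 89, with a log2 difference of −1.26 (SE 0.15, adjusted p = 0.000257), and Rpl23 at 829.04, 869 and 1015 FPKM at day 7 and 209, 280.4 and 257 at day 89, with a log2 difference of −1.86 (SE 0.23, adjusted p = 0.000289). The 6 libraries did not overlap for 78 of the 83 genes. With the length trend removed 68 fell and the median was −1.15. With TPM 60 fell, and without both libraries of high mitochondrial share 38 fell, at a median of −1.08. Ribosomal protein genes have many processed pseudogene copies, so the split of their reads is uncertain.

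Among 12 long non-coding RNAs 5 fell, 7 were not called and 3 of the 12 lay above 0. Gas5, which carries snoRNAs in its introns and a terminal oligopyrimidine start like that of ribosomal protein genes, stood at 84.4, 80.1 and 102 FPKM at day 7 and 19.98, 31.7 and 25.4 at day 89, with a log2 difference of −1.77 (SE 0.24, adjusted p = 0.000429). Snhg1 stood at 34.3, 22.8 and 32.3 FPKM at day 7 and 9.58, 10.4 and 10.8 at day 89, and Epb41l4aos at 48.7, 71 and 69.2 FPKM at day 7 and 8.23, 25.3 and 14.9 at day 89. Meg3 stood at 6.59, 4.32 and 7.88 FPKM at day 7 and 1.66, 2.1 and 1.9 at day 89, with a log2 difference of −1.30 (SE 0.30, adjusted p = 0.0054). The list's median was −0.54, and −0.96 with the length trend removed. Of 42 small nuclear and nucleolar RNA genes tested, out of 162 in the table, 9 fell (21.4%) and 4 rose (9.52%). Over all genes 15.7% were called lower and 16.1% higher. Rn7sk, the 7SK RNA that holds the elongation factor P-TEFb inactive, stood at 10.5, 13.2 and 20.4 FPKM at day 7 and 0.495, 1.36 and 3.32 at day 89, with a log2 difference of −2.61 (SE 0.49, adjusted p = 0.00195). Snora57 and Snora31, which guide pseudouridylation, stood at 44.5, 50.1 and 66.9 FPKM at day 7 and 8.86, 12.2 and 12.8 at day 89 and at 97.8, 116 and 121 FPKM at day 7 and 14.3, 22.1 and 20.7 at day 89. None of these libraries overlapped between days, for genes that were picked by smallest p. Small RNA rises numbered 1 (without 10, 51, 53 or R123) to 4 and falls numbered 4 (without 53) to 11 as single control libraries were left out, and 2 rose and 3 fell without both libraries of high mitochondrial share.

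Nuclear genes of oxidative phosphorylation were called mostly lower. Of 85 tested, 46 fell and 6 rose, at a median of −0.67, and of −0.44 with the length trend removed (28 lower, 9 higher). Uqcrh, a small hinge protein of complex III, stood at 231, 315 and 314 FPKM at day 7 and 67.8, 106 and 79.99 at day 89, with a log2 difference of −1.76 (SE 0.24, adjusted p = 0.000483). Cox6c of cytochrome c oxidase stood at 96.2, 83.8 and 101 FPKM at day 7 and 42.9, 41.6 and 40.2 at day 89, with a log2 difference of −1.15 (SE 0.18, adjusted p = 0.000789), and Ndufs4 of complex I at 44.9, 43.3 and 50.02 FPKM at day 7 and 21.2, 23.7 and 22 at day 89, with a log2 difference of −1.01 (SE 0.14, adjusted p = 0.000502). The 6 that rose were Uqcrc2, Atp5b, Ndufs1, Ndufa9, Atp5a1 and Sdha, named here because of their direction. Several of these are core or catalytic subunits, and their log2 differences lay between 0.55 (Sdha) and 1.14 (Uqcrc2). Oxidative phosphorylation rises numbered 3 (without 10 or 53) to 8 and falls numbered 32 to 43 as single control libraries were left out, and 0 rose and 23 fell without both libraries of high mitochondrial share. With TPM the list's median was −0.14, with 12 higher and 15 lower.

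Mitochondrially encoded mRNAs stood lower at day 89, at a median of −2.39, and 8 of 13 fell. This rested on replicates 10 and 53, and a fit of the 6 control libraries alone called 3 falls. The summed FPKM of the 13 genes ran from 12380 to 104400 at day 7 and from 3601 to 17130 at day 89, so the ranges overlapped. The cytochrome oxidase subunit mt-Co2 stood at 1108, 68 and 1655 FPKM at day 7 and 85.2, 36.8 and 46 at day 89, where replicate 51 lay below day 89 replicate R123. Mitochondrial falls numbered 1 (without 53) to 13 (without 51) as single control libraries were left out, and 0 rose and 0 fell without both libraries of high mitochondrial share. Without replicates 10 and 53 the median was −0.37.

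Adhesion and cytoskeletal linker genes, which tie integrins to actin, rose together. Of 29 tested 20 rose and none fell, at a median of 0.77, against 16.1% of all genes called higher. Actn1, an actin crosslinker, stood at 13.9, 15.5 and 19.4 FPKM at day 7 and 40.9, 46.8 and 52 at day 89, with a log2 difference of 1.47 (SE 0.16, adjusted p = 0.000257). Myh9, the heavy chain of non-muscle myosin IIA, stood at 12.7, 17.1 and 10.2 FPKM at day 7 and 49.8, 65.5 and 54.8 at day 89, with a log2 difference of 2.03 (SE 0.23, adjusted p = 0.000257). Dst and Macf1, giant linkers of actin to microtubules, stood at 1.83, 1.6 and 1.88 FPKM at day 7 and 7.48, 5.79 and 7.02 at day 89 and at 5.5, 8.27 and 7.03 FPKM at day 7 and 14.1, 16.9 and 16.1 at day 89. The members are long, at a median of 9402 nt, and with the length trend removed 15 of 29 rose at a median of 0.63. All 29 lay above 0, and 12 rose without both libraries of high mitochondrial share.

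Collagens rose as well. Of 36 tested, out of 44 in the table, 17 rose and none fell, at a median of 0.59, with 14 rising at a median of 0.34 after removal of the length trend. Col4a1 and Col4a2, the main chains of basement membrane collagen, stood at 65.1, 54.2 and 38.5 FPKM at day 7 and 208, 241 and 199.7 at day 89 and at 55.1, 36.8 and 32.4 FPKM at day 7 and 134, 149.97 and 134 at day 89. They rose by 2.05 (SE 0.21, adjusted p = 0.000181) and 1.76 (SE 0.21, adjusted p = 0.00026). Col5a1, which nucleates fibrils, stood at 13.9, 15.2 and 13.1 FPKM at day 7 and 35.7, 37.2 and 29.3 at day 89, and the beaded filament collagen Col6a1 at 76.2, 36.2 and 43.5 FPKM at day 7 and 147, 204 and 189 at day 89. Summed over the list, FPKM ran from 442 to 616 at day 7 and from 1186 to 1543 at day 89. The fibrillar chains Col1a1 and Col3a1, the main stromal collagens and named outside the rule, stood at 105, 59.5 and 40.6 FPKM at day 7 and 255, 251 and 139 at day 89 and at 83, 57.4 and 36.6 FPKM at day 7 and 312, 225 and 140.2 at day 89.

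Other matrix genes followed. Of 15 laminin and basement membrane genes 9 rose and none fell, at a median of 0.73, and 5 rose without both libraries of high mitochondrial share. Lama4, a laminin chain of vessels, stood at 4.61, 3.46 and 3.69 FPKM at day 7 and 9.5, 9.18 and 9.69 at day 89, and Nid2, which joins laminin to collagen IV, at 3.5, 6.33 and 2.86 FPKM at day 7 and 22.2, 14.7 and 17.3 at day 89. Lamc1, the most widely used gamma chain, stood at 11.7, 15.3 and 8.42 FPKM at day 7 and 44.5, 36 and 37.6 at day 89, with a log2 difference of 1.69 (SE 0.30, adjusted p = 0.00146). Among 34 matrix proteases and crosslinkers tested, out of 49 listed, 15 rose and 1 fell, at a median of 0.55. Besides Mmp2 and Timp3 these included Loxl2, which crosslinks collagen, at 9.89, 11.3 and 11.5 FPKM at day 7 and 31.9, 34.2 and 41 at day 89. Protease rises numbered 10 (without R123) to 15 and falls numbered 0 (without 10, 53, R123, R124 or R126) to 1 as single control libraries were left out, and 10 rose and 0 fell without both libraries of high mitochondrial share. Adamts4, a proteoglycan-cleaving protease, stood at 0.291, 0.708 and 0.313 FPKM at day 7 and 5.24, 3.71 and 3.2 at day 89, with a log2 difference of 1.80 (SE 0.20, adjusted p = 0.000257). It was also the leading gene of the periovulatory list, where Adamts1, a protease induced before ovulation, stood at 12.5, 7.66 and 4.53 FPKM at day 7 and 37.1, 20.1 and 14.6 at day 89, with a log2 difference of 1.42 (SE 0.32, adjusted p = 0.00512). Only these 2 of 11 periovulatory genes tested rose, and none fell. This is 18.2% against 16.1% of all genes called higher, close to the background.

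Chromatin regulators encoded by very long transcripts, at a median of 13540 nt, showed how far a list can follow length. Of 25 tested 15 rose and none fell, at a median of 0.53. Bin 10 of all genes had a median of 0.39, and with the length trend removed the list's median was 0.17 with 8 rises. Without both libraries of high mitochondrial share 6 rose. Med12, a subunit of the mediator kinase module, stood at 3.08, 1.28 and 2.23 FPKM at day 7 and 10.6, 7.7 and 8.75 at day 89, and Ep300, a histone acetyltransferase, at 2.76, 2.56 and 2.85 FPKM at day 7 and 10.4, 5.72 and 8.24 at day 89. Chd3, a nucleosome remodeller, stood at 23.8, 17.5 and 21 FPKM at day 7 and 38.1, 39.8 and 39.9 at day 89. The 6 control libraries did not overlap for any of these 3 genes, which were picked by smallest p.

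Surface epithelial and mesothelial genes were lower at day 89. Of 13 tested 9 fell and none rose, at a median of −1.46, and of −1.21 with the length trend removed (6 falls). Besides Lgals7, the surface glycoprotein mesothelin, Msln, stood at 7.71, 5.81 and 8.71 FPKM at day 7 and 0.696, 1.56 and 0.996 at day 89, with a log2 difference of −2.02 (SE 0.30, adjusted p = 0.000618). Krt7 stood at 3.3, 4.58 and 3.98 FPKM at day 7 and 0.248, 1.02 and 0.468 at day 89, with a log2 difference of −1.67 (SE 0.27, adjusted p = 0.00105), and Krt18, another keratin of simple epithelia, at 21.3, 13.9 and 23.2 FPKM at day 7 and 3.96, 6.75 and 5.06 at day 89, with a log2 difference of −1.70 (SE 0.29, adjusted p = 0.00115). No library overlapped for these genes, which were picked by smallest p. Surface epithelial falls numbered 5 (without R126) to 7 as single control libraries were left out, and 0 rose and 4 fell without both libraries of high mitochondrial share. Wt1, a transcription factor shared with granulosa and stromal cells and named outside the rule, differed by −0.04 (adjusted p = 0.925). Markers of the neighbouring oviduct and its motile cilia gave 3 falls among 8 tested, of 20 listed, and 12 did not pass the filter. With TPM none fell. Oviduct and cilia falls numbered 0 (without 10 or 53) to 2 as single control libraries were left out, and 0 rose and 0 fell without both libraries of high mitochondrial share. Their summed FPKM ran from 19.2 to 31.2 at day 7 and from 15.8 to 23.1 at day 89. How far the amount of covering or attached epithelium taken with each ovary moved with the day was not tested.

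Oocyte transcripts stood lower at day 89, in part. Of 24 tested 13 fell and none rose, at a median of −0.78, and of −0.61 with the length trend removed (9 falls). A fit of the 6 control libraries alone called 6 falls. Ooep, a protein of the subcortical maternal complex, stood at 27.1, 22.8 and 31.3 FPKM at day 7 and 8.13, 1.66 and 8.28 at day 89, with a log2 difference of −2.20 (SE 0.39, adjusted p = 0.00146). Dppa3, a maternal protein that guards DNA methylation, stood at 38.6, 34.3 and 50.1 FPKM at day 7 and 14.7, 2.72 and 12.7 at day 89, with a log2 difference of −2.16 (SE 0.43, adjusted p = 0.00282). Bcl2l10, an oocyte protein of the BCL2 family, stood at 52.1, 31.4 and 67.2 FPKM at day 7 and 14.4, 4.88 and 16.1 at day 89, and Mos, the kinase that holds the egg in meiotic arrest, at 15.3, 5.9 and 13.7 FPKM at day 7 and 3.17, 1.01 and 4.68 at day 89. Replicate R124 was the lowest library for each of these 4 genes. The zona pellucida gene Zp3 was not called (log2 difference −0.59, adjusted p = 0.355), and neither were Zp1 (−0.09) and Zp2 (−0.21). The members therefore did not share 1 change. Oocyte falls numbered 7 (without 53 or R124) to 15 as single control libraries were left out, and 0 rose and 0 fell without both libraries of high mitochondrial share. The median was −0.47 without those 2 libraries, and with TPM 7 fell. Of the oocyte transcription factors, Sohlh1, needed for growth of primordial follicles, stood at 4.18, 4.49 and 3.4 FPKM at day 7 and 0.89, 0.438 and 1.52 at day 89, with a log2 difference of −1.40 (SE 0.24, adjusted p = 0.0013). Figla, which activates zona genes, stood at 2.39, 1.49 and 2.49 FPKM at day 7 and 0.654, 0 and 0.949 at day 89, with a log2 difference of −1.06 (SE 0.26, adjusted p = 0.0074). The call of Figla was lost with the length trend removed. The other 8 of the 10 tested were not called, so 20% fell, against 15.7% of all genes.

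Granulosa, theca and luteal genes gave few calls. The counts of this and the following lists are again to be read against 16.1% of all genes called higher and 15.7% lower. Of 15 granulosa genes 1 fell, Foxl2, by 0.47 (adjusted p = 0.0312). That call was lost without replicate 10, R123, R124 or R126 (adjusted p of 0.124, 0.0849, 0.0672 and 0.0666), and with TPM the difference was 0.067. Inha, the inhibin alpha subunit, stood at 787, 876 and 562 FPKM at day 7 and 971, 1424 and 1228 at day 89, not called (adjusted p = 0.306). Of 12 theca and interstitial genes only Enpep rose, a peptidase, and that call too was lost without single libraries (10, 53, R123, R124 or R126; adjusted p of 0.108, 0.105, 0.0631, 0.0603 and 0.0841). Of 17 luteal genes 1 rose, at a list median of 0.73, with 16 of 17 above 0, while 6 rose with TPM at a median of 1.27 and 3 with voom. The 1 call was Pla2g4a, a phospholipase that frees arachidonic acid, at 2.26, 2.56 and 1.59 FPKM at day 7 and 4.7, 4.39 and 4.54 at day 89, with a log2 difference of 0.83 (SE 0.27, adjusted p = 0.0334), and the call was lost without 10, 53, R123, R124 or R126 (adjusted p of 0.0626, 0.119, 0.0816, 0.0668 and 0.0775). Scarb1, the receptor that takes up cholesterol from lipoproteins, stood at 62.7, 54.7 and 46.9 FPKM at day 7 and 68.6, 142 and 145 at day 89 and was not called (adjusted p = 0.0627). Hsd3b1, which makes progesterone, stood at 2359.9, 1810.2 and 1352 FPKM at day 7 and 2898, 2588 and 2724 at day 89 (adjusted p = 0.11). The summed FPKM of luteal genes ran from 3163 to 4349 at day 7 and from 5462 to 6546 at day 89 without overlap, while 1 of 17 members passed the test.

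Sterol synthesis and uptake genes, which supply cholesterol for steroid hormones, showed 4 rises and no fall in 23, at a median of 0.46. This is 17.4% against 16.1% of all genes, close to the background. Sterol gene rises numbered 0 (without 53) to 6 (without R123) as single control libraries were left out, and 1 rose and 0 fell without both libraries of high mitochondrial share. Nsdhl, a sterol dehydrogenase, stood at 7.14, 2.98 and 4.3 FPKM at day 7 and 8.95, 11 and 14.1 at day 89. Idi1, of the isoprenoid steps, stood at 1.14, 3.63 and 1.8 FPKM at day 7 and 6.31, 15.4 and 10.6 at day 89, and the master regulator Srebf2 at 20.5, 21.7 and 20.02 FPKM at day 7 and 29.7, 39 and 35.4 at day 89. These 3 calls rested on single libraries, since Idi1, Nsdhl and Srebf2 were all lost without replicate 53 (adjusted p of 0.0716, 0.0506 and 0.0622). Idi1 was also lost without 10, R124 or R126 (adjusted p of 0.0876, 0.089 and 0.065), Nsdhl without 51 or R126 (0.0551 and 0.0645) and Srebf2 without R124 or R126 (0.0703 and 0.0588). Among hormone receptors 4 of 16 rose. Receptor rises numbered 2 (without 53, R124 or R126) to 5 and falls numbered 0 (without 10, 51, 53, R124 or R126) to 1 (without R123) as single control libraries were left out, and 0 rose and 0 fell without both libraries of high mitochondrial share. The calls of Insr and Igf1r were also lost with the length trend removed (adjusted p of 0.928 and 0.418). Acvr2a and Acvr1b, receptors for activin, stood at 1.81, 3.25 and 1.72 FPKM at day 7 and 5.79, 6.44 and 5.81 at day 89 and at 4.4, 4.44 and 3.78 FPKM at day 7 and 8.25, 7.76 and 8.11 at day 89.

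Macrophage genes were mixed in direction. Of 16 tested 5 rose and 1 fell, at a median of 0.56. Cd68, a lysosomal glycoprotein, stood at 10.01, 2.19 and 6.28 FPKM at day 7 and 35.6, 14.7 and 16.4 at day 89, with a log2 difference of 1.76 (SE 0.43, adjusted p = 0.00841). Mertk, which mediates uptake of dying cells, stood at 4.41, 3.49 and 4.27 FPKM at day 7 and 8.75, 6.35 and 6.69 at day 89, with a log2 difference of 0.70 (SE 0.17, adjusted p = 0.00863). Aif1, an actin-bundling protein of macrophages, fell instead, at 6.69, 10.1 and 9.84 FPKM at day 7 and 3.21, 3.68 and 1.91 at day 89, with a log2 difference of −1.34 (SE 0.33, adjusted p = 0.00883). Macrophage rises numbered 2 (without R123) to 7 and falls stayed at 1 as single control libraries were left out, and 2 rose and 0 fell without both libraries of high mitochondrial share. Of 15 genes of lipid-laden and giant-cell macrophages 5 rose and none fell. Gpnmb, a lysosomal glycoprotein of such cells, stood at 3.12, 2.75 and 2.8 FPKM at day 7 and 20.8, 22.4 and 11 at day 89, with a log2 difference of 2.23 (SE 0.25, adjusted p = 0.000257). Cd36, a scavenger receptor, stood at 2.6, 2 and 3.72 FPKM at day 7 and 14.4, 10.8 and 10.6 at day 89, Mmp12, macrophage elastase, at 0.239, 0.276 and 0.565 FPKM at day 7 and 2.79, 2.42 and 1.94 at day 89, and Atp6v0d2, a proton pump subunit, at 2.16, 1.81 and 3.3 FPKM at day 7 and 10.04, 9.01 and 4.18 at day 89. Ctss, a lysosomal cysteine protease, stood at 15.4, 26.6 and 26.9 FPKM at day 7 and 81.6, 89.1 and 41.8 at day 89. The day 89 libraries lay above the day 7 libraries for all 5, which are the members called. Cd36 is also expressed by endothelium and fat, so these genes are not particular to 1 cell type.

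Interferon-response genes stood lower on the deposited scale, with 9 falls and no rise in 27 and a median of −0.48. Ifit3, an antiviral RNA-binding protein, stood at 15.8, 6.66 and 10.7 FPKM at day 7 and 4.38, 3.78 and 3.01 at day 89, with a log2 difference of −1.29 (SE 0.29, adjusted p = 0.0054). Bst2, which tethers budding virions, stood at 472, 624 and 682 FPKM at day 7 and 193, 305 and 255 at day 89, with a log2 difference of −1.25 (SE 0.29, adjusted p = 0.00619), and the antiviral GTPase Mx2 at 1.73, 1.72 and 1.61 FPKM at day 7 and 0.681, 0.921 and 0.794 at day 89. With TPM the median was 0.01, with 2 higher and 2 lower. Interferon-response rises numbered 0 (without 10, 51, 53, R123 or R124) to 1 (without R126) and falls numbered 3 (without R126) to 10 as single control libraries were left out, and 0 rose and 0 fell without both libraries of high mitochondrial share. Neutrophil and B cell genes gave few calls, 1 of 7 and 0 of 10. T cell genes gave 4 of 13, with 23.1% higher and 7.69% lower, against 16.1% and 15.7% of all genes. Il7r, the interleukin 7 receptor, rose, at 0.186, 0.22 and 0.277 FPKM at day 7 and 0.762, 1.63 and 0.877 at day 89. It was 1 of 3 T cell rises, and its day 7 values lay under the 0.5 FPKM of the filter. The T cell list had a median of −0.18, with 5 of 13 genes above 0 and 8 below, and Thy1 fell by 0.68. T cell rises numbered 1 (without 53 or R126) to 2 and falls numbered 0 (without 10, 53, R124 or R126) to 1 as single control libraries were left out, and 0 rose and 0 fell without both libraries of high mitochondrial share.

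Endothelial genes went both ways, with 4 rises and 1 fall in 16, or 25% and 6.25% against 16.1% and 15.7% of all genes. Cdh5, the cadherin of endothelial junctions, stood at 14.4, 14.2 and 13.5 FPKM at day 7 and 41.5, 27.7 and 40.9 at day 89, with a log2 difference of 1.30 (SE 0.15, adjusted p = 0.00026). Egfl7, a matrix protein secreted by endothelium, stood at 29.7, 40.2 and 44.8 FPKM at day 7 and 12.4, 20.9 and 16.5 at day 89, with a log2 difference of −1.16 (SE 0.31, adjusted p = 0.0136), a call lost without replicate 53 or R123 (adjusted p of 0.0558 and 0.0582). Endothelial rises numbered 1 (without 53, R123 or R126) to 6 (without 51) and falls numbered 0 (without 53 or R123) to 2 (without 10) as single control libraries were left out, and 1 rose and 1 fell without both libraries of high mitochondrial share. Of 13 smooth muscle genes 1 rose and 3 fell, and with TPM 5 rose and none fell. Smooth muscle rises numbered 0 (without 51, 53, R123 or R126) to 2 (without 10) and falls numbered 0 (without R126) to 2 as single control libraries were left out, and 1 rose and 0 fell without both libraries of high mitochondrial share. The nerve list had 1 rise and 2 falls in 8. Nerve rises numbered 0 (without 10, 53, R123, R124 or R126) to 1 and falls numbered 1 (without 10 or R124) to 2 as single control libraries were left out, and 0 rose and 1 fell without both libraries of high mitochondrial share. Globins, a measure of blood in the tissue, summed to 49.3, 309 and 102.5 FPKM at day 7 and 42.6, 44.2 and 42.4 at day 89, with replicate 51 the highest.

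Stress genes were called in both directions, as were all genes. Gpx1, a selenium-dependent peroxidase, stood at 126.5, 58.1 and 121 FPKM at day 7 and 33.9, 20.4 and 19.3 at day 89, with a log2 difference of −1.97 (SE 0.41, adjusted p = 0.00331). Gpx4, which protects membrane lipids, stood at 258, 214 and 273 FPKM at day 7 and 117, 118 and 133 at day 89, and the superoxide dismutase Sod1 at 169.6, 146 and 153 FPKM at day 7 and 78.8, 102 and 91.8 at day 89. The antioxidant list as a whole had 4 rises and 4 falls in 25. This is 16% each way against 16.1% and 15.7% of all genes, close to the background. Antioxidant rises numbered 0 (without 53) to 2 and falls numbered 4 to 5 as single control libraries were left out, and 0 rose and 1 fell without both libraries of high mitochondrial share. Gpx1 (−1.25, adjusted p = 0.16), Gpx4 (0.121) and Sod1 (0.123) were among the calls lost there. Of the unfolded protein response, 6 rose and 2 fell in 17. Calr, a chaperone of the endoplasmic reticulum, stood at 147, 116 and 109 FPKM at day 7 and 267, 338 and 322 at day 89, with a log2 difference of 1.31 (SE 0.26, adjusted p = 0.00275), and Xbp1, a driver of that response, at 27.5, 21.9 and 28.6 FPKM at day 7 and 46.3, 57.5 and 46.4 at day 89. Atf4, the transcription factor of the integrated stress response, fell, at 125, 140.5 and 135 FPKM at day 7 and 47.6, 61.4 and 58.7 at day 89, with a log2 difference of −1.25 (SE 0.18, adjusted p = 0.000523). Unfolded protein response rises numbered 2 (without 10) to 6 and falls numbered 1 (without 10 or R124) to 2 as single control libraries were left out, and 1 rose and 1 fell without both libraries of high mitochondrial share. Xbp1 was one of the calls lost there (adjusted p = 0.0511).

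Of 15 genes of fasting and glucocorticoid action 2 rose and 2 fell, 13.3% each, below the shares over all genes, and 11 were not called. Cpt1a, the gate of mitochondrial fatty acid import, stood at 23.2, 14.1 and 16.3 FPKM at day 7 and 68.2, 46.2 and 48.9 at day 89, with a log2 difference of 1.56 (SE 0.19, adjusted p = 0.000282). Angptl4, a lipase inhibitor, stood at 22.5, 23.2 and 18.4 FPKM at day 7 and 55.5, 48.2 and 50.7 at day 89, with a log2 difference of 1.24 (SE 0.16, adjusted p = 0.000369). Klf15 and Tsc22d3, both glucocorticoid targets, fell, at 9.52, 9.05 and 10.7 FPKM at day 7 and 4.93, 3.82 and 4.99 at day 89 and at 20.8, 28.4 and 34.1 FPKM at day 7 and 10.6, 16.8 and 14.4 at day 89. In the circadian clock list 2 rose and 4 fell in 19. Clock gene rises numbered 2 to 3 (without 51) and falls numbered 2 (without 10, 53, R124 or R126) to 5 as single control libraries were left out, and 2 rose and 0 fell without both libraries of high mitochondrial share. Arntl, the activator of the clock, stood at 0.787, 0.546 and 0.477 FPKM at day 7 and 2.64, 2.82 and 2.27 at day 89, and the repressor Nfil3 at 2.66, 2.27 and 3.51 FPKM at day 7 and 7.85, 7.02 and 7.32 at day 89. Per3 stood at 6.57, 6.77 and 6.27 FPKM at day 7 and 3.09, 3.2 and 3.6 at day 89 and Tef, an output factor, at 33.8, 30.8 and 33.4 FPKM at day 7 and 16.7, 18.2 and 19 at day 89. No library overlapped for these 4 genes, which were picked by smallest p, and the labels do not state the hour of collection. With TPM the calls of Per3, Tef, Klf15 and Tsc22d3 were lost, as were those of Sod1, Ndufs4, Mx2, Psmb6, Birc5 and Egfl7.

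Of 25 proliferation genes 3 rose and 1 fell, and of 21 DNA damage genes 4 rose and 1 fell. Proliferation rises numbered 1 (without 53, R123 or R126) to 3 and falls numbered 1 to 2 (without R123) as single control libraries were left out, and 2 rose and 1 fell without both libraries of high mitochondrial share. DNA damage rises numbered 0 (without 53) to 2 and falls numbered 0 (without 53 or R123) to 1 as single control libraries were left out, and 0 rose and 0 fell without both libraries of high mitochondrial share. Kif20a, a kinesin of cell division, stood at 0.875, 1.51 and 1.08 FPKM at day 7 and 5.24, 3.41 and 4.42 at day 89, with a log2 difference of 1.31 (SE 0.19, adjusted p = 0.00059), whereas Birc5, survivin of the same mitotic midzone, stood at 11.3, 12.2 and 9.74 FPKM at day 7 and 5.94, 5.47 and 5.94 at day 89, with a log2 difference of −0.83 (SE 0.17, adjusted p = 0.00349). Among TGF-beta and IGF family genes 3 rose and 1 fell in 24. Fstl3, which binds activin, stood at 0.218, 0.265 and 0.176 FPKM at day 7 and 2.88, 1.41 and 1.6 at day 89, with a log2 difference of 1.25 (SE 0.21, adjusted p = 0.0011). Ltbp4, which anchors latent TGF-beta in the matrix, stood at 16.9, 29.5 and 16.7 FPKM at day 7 and 55.7, 79.4 and 63.8 at day 89, with a log2 difference of 1.65 (SE 0.31, adjusted p = 0.00186). Growth factor rises numbered 2 (without 10, 53, R123, R124 or R126) to 4 and falls numbered 0 (without 10, R124 or R126) to 2 (without 51 or R123) as single control libraries were left out, and 1 rose and 0 fell without both libraries of high mitochondrial share. Of 38 proteasome subunits 8 rose and 6 fell. Proteasome rises numbered 3 (without 53) to 8 and falls numbered 3 (without 53 or R123) to 9 (without 10) as single control libraries were left out, and 1 rose and 6 fell without both libraries of high mitochondrial share. Psmd1, a large scaffold of the regulatory particle, stood at 6.5, 6.36 and 7.77 FPKM at day 7 and 17.8, 17.5 and 17.7 at day 89, and the smaller catalytic subunit Psmb6 at 115, 166 and 138 FPKM at day 7 and 66.8, 89.7 and 74.4 at day 89.

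The DSS ovaries, which share no library with the controls, gave a second measurement of the same days. Across the 18006 genes the day difference of DSS ovaries correlated with that of controls at r = 0.786 and the signs agreed for 80.6%. Genes share libraries and the cohorts share their day, so these values describe and do not test. Of genes called in controls 96.7% had the same sign in DSS ovaries. Of the 2900 rises 48.3% were called higher there and 3 lower, against 10.7% of all genes called higher. Of the 2832 falls 45.2% were called lower and 1 higher, again against 10.7%. DSS calls were contained in control calls to the extent of 72.8% of rises and 66.2% of falls. Vcl stood at 0.236, 1.45, 0.871 and 1.59 FPKM in day 7 DSS ovaries and at 13.8, 4.33, 15.4 and 17.8 at day 89, where the second value is replicate R38. The slope of the DSS difference on the control difference was 0.60. Spread in the control differences by itself lowers such a slope, so it does not show a smaller day difference in DSS ovaries.

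**Figure D5:**
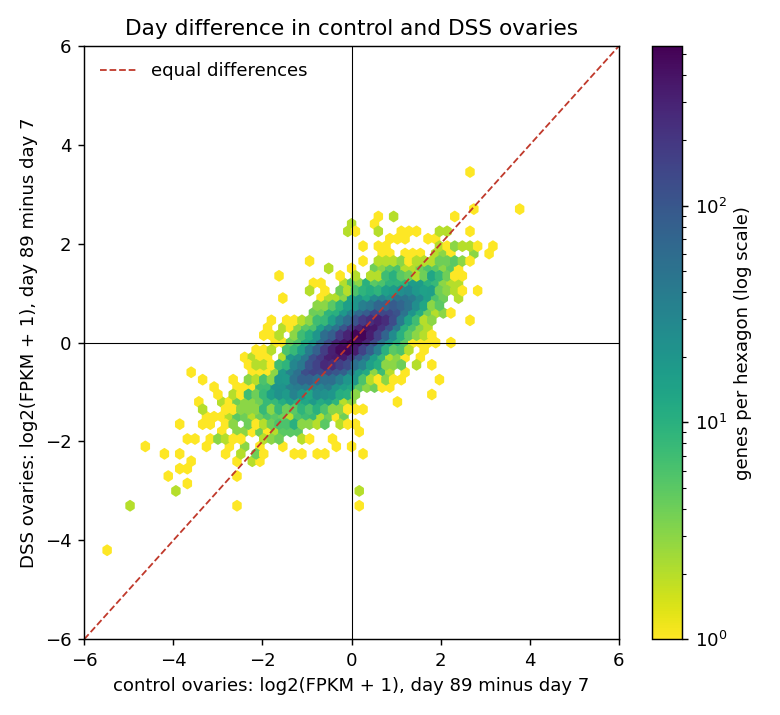
Day difference, log2(FPKM + 1) at day 89 minus day 7, of each tested gene in control ovaries (horizontal) and DSS ovaries (vertical). Colour counts the genes in a hexagon on a log scale and the dashed line marks equal differences. The cloud runs along a slope of 0.60, below the line for rises and above it for falls. Spread in the control differences by itself lowers this slope.

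No gene passed the test of a difference between the day effects of control and DSS ovaries. In limma's interaction contrast 0 genes were called, the smallest adjusted p was 0.254, and 1521 genes (8.45%) fell under 0.05 before adjustment. With voom the counts were 0 and 1498. Sample weights estimated from the same libraries gave 4226 calls. The shortest minus the longest bin fell by 0.422 in DSS ovaries, with an exact permutation p of 0.0286, the smallest for 4 against 4. The difference between that fall and the 0.638 in controls had an exact permutation p of 0.18. The interferon list stood at a median of −0.48 in controls and 0.28 in DSS ovaries, and the oocyte list at −0.78 and −1.55, but the difference was called for none of their genes.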

How the data were processed

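Total RNA of 14 mouse ovary samples was sequenced from TruSeq libraries, per the labels' protocols. Reads were aligned with HISAT2 2.0.5 to GRCm38, per the submitters' processing notes; the counting tool, annotation release, strand setting and handling of multimapped reads are not given there. The authors deposited 1 table of FPKM per gene with gene lengths.

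Genes with an FPKM of at least 0.5 in at least 3 of 14 libraries were tested. log2(FPKM + 1) was fitted with limma 3.58.1 (R 4.3.3; empirical Bayes with trend) over all 4 groups, which share 1 estimate of spread, with Benjamini-Hochberg adjustment over all genes tested. Low FPKM steps gave each library's recovered reads and the depth used in its scaling. The FPKM were not replaced. Positions are from GENCODE M21; the positions in the deposited table were not used. The fit was tested on simulated data. Named genes are the 12 largest called changes each way (a group mean of 1 FPKM or more, no overlap of control libraries, no predicted genes), the 3 smallest p in each end bin of length, and up to 4 members with the smallest p in each list; others are said to be outside the rule or chosen for their direction. Members, gene length as a measure and the 47 gene lists were chosen with earlier results of these data known. Alternatives comprised other pseudocounts, filters, scalings, voom, trend removal and leaving out libraries. A few genes are not reported here.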

Additional observations from a re-analysis of the deposited data

Results flagged for a closer look

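Among 22 sets of 4 DSS libraries and measures, 10 held a library far from the other 3, where chance flags about 1 in 20. The 10 come from 2 libraries, and the measures overlap in the genes they count, so they are not independent. Control groups of 3 are too small for this check. Day 7 DSS replicate 75 stood apart with 14.2% of reads in mitochondrial genes, a ribosomal protein sum of 76030.0 FPKM, 15.5% of reads in the 10 highest genes, and 23.1% and 24.2% of reads in the shortest and longest of 4 length bins. Day 89 DSS replicate R38 stood apart with 3.66% mitochondrial reads, a short minus long value of 0.107, 11.5% and 31.7% of reads in the shortest and longest bins, and a first principal component score of 8.86. The controls bear on the same measures in the report.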

How the results depend on the processing

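No gene was called in the opposite direction under any setting run. With TPM 5710 genes were called higher and 1082 lower, and with sample weights 5897 and 5889. Scaled to each library's own recovered total, the counts were 3102 and 2391. A fit of the 6 control libraries alone called 2425 and 2317, and 20 of 161 named entries lost their call. Without both control libraries of high mitochondrial share the counts were 1017 and 958, from 1 day 7 library that is assumed to vary like the other groups. Leaving out single libraries gave 1858 (without day 7 replicate 53) to 3207 (without DSS R38) higher and 1837 (without replicate 53) to 3093 (without replicate 51) lower. The short minus long difference of −0.638 became −0.788 with a pseudocount of 0.1, −0.29 with every gene above 0 FPKM in a library, −0.814 with a mean FPKM of at least 1, −0.865 with TPM, −0.765 as the median over bins of mean FPKM and −0.474 without both libraries of high mitochondrial share; single libraries left out gave −0.721 to −0.582. The difference between control and DSS day effects was called for 2 genes with the filter above 0 and 4226 with sample weights. Foxl2 turned to 0.06734 with TPM and Insr to −0.005693 with length and GC trends removed. The cause of these shifts was not tested. GC removal, joint length and GC removal, scaling to recovered totals and leaving out R38 were chosen after seeing the data. Of 160 named called genes, 112 kept their call without each control library in turn; without both libraries of high mitochondrial share 80 of 161 named entries did. No paired analysis was possible because no replicate number recurs between the groups. The edgeR alternative was not run because the values are FPKM. Depth limits genes at few reads, such as the small RNA entries.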

Other observations

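Counts of gene groups not described above are to be read against 16.1% of all genes called higher and 15.7% lower. Of 17 complement genes 2 rose and none fell, at a median log2 difference of 0.54. Of 9 MHC class II genes 2 rose and none fell, both calls being lost without replicate 10, R123 or R124. Of 21 chemokine and cytokine genes 1 rose. Heat shock chaperones had 1 rise and 2 falls in 14, and immediate-early genes, which respond within minutes to handling and signals, 1 of each in 20. Of 15 replication-dependent histone genes tested 1 rose and 1 fell, while 45 did not pass the filter. Of 8 adipocyte genes 1 rose. Of 4 skeletal muscle genes none was called. Of 5 erythrocyte genes 1 fell, at a median of −1.31.

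Gene classes differed as well. Among 1998 lncRNA genes 108 (5.41%) rose and 463 (23.2%) fell, at a median of −0.30, and of −0.08 with the length trend removed. Among 1073 processed pseudogenes 163 rose and 231 fell, and their median went from −0.15 to 0.13 with the length trend removed.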
